A study of Mus musculus with 10 samples.

Results

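The olfactory receptor promoters were captured fragments (baits) that hold an end, 5′ or 3′, of a protein-coding gene whose symbol begins with Olfr in the GRCm38.p6 gene table. Olfr69, Olfr623, Olfr624 and Olfr639, which lie on 3 baits, were left out by the rule. The members were 327 of the 12186 baits with a listed contact in the stem and progenitor libraries, with 1183 of 88624 pairs. In the neutrophil libraries they were 158 of 6746 baits, with 287 of 25622 pairs, and 117 baits were members in both. Promoter-capture Hi-C ligates chromatin fragments that lay near each other and enriches those that hold a promoter. Each pair of a bait and another HindIII fragment had 1 interaction score per library.

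The 10 libraries came from C57BL/6 mice in 5 groups of 2. Haematopoietic stem and progenitor cells (HSPCs, here bone marrow depleted of lineage-positive cells with a kit) were taken from Wild-type mice (WT), Npm1flox-cA/+;Mx1-Cre+ mice (Npm1c), Flt3ITD/+ mice (Flt3-ITD) and Npm1flox-cA/+;Flt3ITD/+;Mx1-Cre+ mice (double mutant, DM). Neutrophils were isolated from WT bone marrow. Npm1c places the shared nucleolar protein nucleophosmin in the cytoplasm, and Flt3-ITD keeps a growth factor receptor active. Mx1 is an interferon-inducible promoter, and the labels name Mx1-Cre for Npm1c and DM but not for WT and Flt3-ITD. Lineage depletion leaves a mixture of cells. A contact in fewer cells and a weaker contact in each cell cannot be told apart. The files measure contacts and not expression, so whether the receptor genes were silent could not be checked, nor could cell identity be checked from marker expression.

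Olfactory receptors are G protein-coupled receptors of the nose. Their genes form one of the largest mammalian gene families and lie in dense clusters on many chromosomes, usually with a short coding sequence in a single exon. An olfactory neuron chooses a single receptor gene and keeps the others in heterochromatin marked by methylated histone H3. In mature olfactory neurons the silent receptor clusters of different chromosomes gather together, with the factors Lhx2, Ebf and Ldb1 on receptor enhancers. Blood cells have no known use for most of these genes, so their contacts are those of clustered tissue-restricted genes outside their own tissue.

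RefSeq (GRCm38.p6) gave a promoter window for 318 of the 375 receptor genes on listed baits. The 250 bases before the annotated start are printed for 3 baits called in a comparison and for Olfr750, the bait with the most neutrophil contacts. All 4 windows lie inside their bait fragment. Capitals mark matches to the motifs searched on both strands.
Olfr1423: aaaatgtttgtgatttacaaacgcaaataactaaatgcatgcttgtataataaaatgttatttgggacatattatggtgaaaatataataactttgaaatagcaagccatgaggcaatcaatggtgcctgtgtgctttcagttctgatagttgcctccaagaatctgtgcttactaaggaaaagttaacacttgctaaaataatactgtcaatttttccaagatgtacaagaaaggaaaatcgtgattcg
Olfr67: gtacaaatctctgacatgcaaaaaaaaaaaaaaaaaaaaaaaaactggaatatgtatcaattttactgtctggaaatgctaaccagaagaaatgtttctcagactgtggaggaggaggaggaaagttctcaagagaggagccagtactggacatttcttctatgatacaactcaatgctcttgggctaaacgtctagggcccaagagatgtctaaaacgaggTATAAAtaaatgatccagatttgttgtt
Olfr669: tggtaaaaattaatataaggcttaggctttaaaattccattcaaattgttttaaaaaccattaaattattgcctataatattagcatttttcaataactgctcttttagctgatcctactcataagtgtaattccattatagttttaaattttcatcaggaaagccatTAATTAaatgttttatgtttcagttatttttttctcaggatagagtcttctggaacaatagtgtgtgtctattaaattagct
Olfr750: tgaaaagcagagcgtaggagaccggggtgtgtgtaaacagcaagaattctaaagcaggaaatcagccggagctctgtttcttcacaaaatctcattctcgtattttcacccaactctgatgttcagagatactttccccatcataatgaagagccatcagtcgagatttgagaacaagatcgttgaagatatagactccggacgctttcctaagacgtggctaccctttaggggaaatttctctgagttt
The Olfr1423 window is chr19:12036741-12036990 (minus strand), Olfr67 chr7:103791831-103792080 (minus), Olfr669 chr7:104938278-104938527 (plus) and Olfr750 chr14:51071443-51071692 (minus). The Olfr67 window holds TATAAA beginning 28 bases before the start, and the Olfr669 window holds TAATTA beginning 82 bases before it. The windows of Olfr1423 and Olfr750 hold none of the motifs searched. The windows are rich in A and T, with a GC content of 32.4% for Olfr1423, 36.4% for Olfr67, 26.0% for Olfr669 and 43.6% for Olfr750.

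The receptor windows as a class were poor in GC and CpG. Over 319 windows of receptor genes on listed baits, 250 bases before to 50 after the start, the median GC content was 36.0% with a median of 1 CpG. Over all 32851 windows these medians were 52.7% and 7. The TATA box letters TATAAA were in 36.4% of the receptor windows and 13.6% of all windows. The LIM homeodomain cores TAATTA and TAATTG, read by factors such as Lhx2, were in 18.2% and 25.4% of receptor windows and in 5.29% and 8.0% of all windows. The Ebf letters TCCCNNGGG were in 2.51% of receptor windows and 6.56% of all windows. TAATTA and TATAAA use A and T alone, so their shares move with base composition. Of the 1110 Olfr gene models, 905 are shorter than 1100 bp and 802 of those (88.6%) have a length divisible by 3. Such models give the coding length, and the window before them need not be at the start of transcription.

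A smaller share of receptor genes than of other genes lay on a listed bait. Of 1106 receptor genes in the table, 334 (30.2%) lay on a bait with an HSPC contact and 159 (14.4%) on one with a neutrophil contact. Of 20786 other protein-coding genes, 50.7% lay on an HSPC bait. A receptor bait had a median of 2 listed pairs, against 4 for other gene baits. Of the 327 baits, 130 had 1 pair and 24 had 10 or more. Baits beside other genes tended to have more contacts. The median distance to the nearest gene of another family was 31.5 kb for the 24 baits with 10 or more pairs, 141 kb for the 130 baits with 1 pair and 119 kb for all 327. The Spearman correlation of pair number with this distance was -0.18 over 327 baits, which share libraries and neighbourhoods.

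The HSPC baits with the most pairs were Olfr221 and Olfr1359 with 32 each, Olfr95 with 29, Olfr750 with 28 and Olfr583 with 27. Olfr221 and Olfr750 lie in the chromosome 14 cluster, 6.89 kb from Zfp219 and 12.2 kb from Rnase4. Olfr1359 lies 0.224 kb from the histone gene H2bc13 on chromosome 13. Olfr95 lies 6.42 kb from Ubd, a ubiquitin-like gene of the major histocompatibility region on chromosome 17. Olfr583 lies 196 kb from the nearest gene of another family, inside the long chromosome 7 cluster.

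Receptor baits mostly contacted fragments inside receptor clusters. Of the 1183 HSPC pairs, 933 (78.9%) reached a fragment within the span of a receptor cluster, here a run of Olfr genes with gaps under 1 Mb. The receptor baits themselves lie in these clusters, which span up to 5071 kb, and the median distance of their same-chromosome pairs was 304 kb. A share expected from position alone was not computed. The other end overlapped a receptor gene in 563 pairs (47.6%), another gene only in 297 (25.1%) and no gene in 323 (27.3%). Among pairs that ended inside a cluster, 60.3% of those from receptor baits overlapped a receptor gene, against 18.4% of the 1502 pairs from other baits. Of these fragments counted once, the shares were 47.8% of 494 and 22.7% of 626. In neutrophils the corresponding shares of pairs were 70.9% of 234 and 23.6% of 420. The fragments with a receptor gene were longer, with a median of 4517 bp against 2449 bp for those without in the receptor bait pairs. The other end was itself a listed bait in 31.7% of receptor bait pairs and 23.5% of other pairs. Whether these features and sequence similarity between receptor genes bear on the difference was not tested.

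The 24 baits with 10 or more pairs ranged from contacts with receptor genes alone to contacts with other genes alone. In Olfr583 the other end overlapped a receptor gene in 27 of 27 pairs, in Olfr26 in 17 of 18, in Olfr1076 in 14 of 15 and in Olfr926 in 10 of 11. At 10 of the 24 baits under 10% of pairs did so. Olfr1359 with 32 pairs, Olfr221 with 32, Olfr750 with 28, Olfr1344 with 14, Olfr1366 with 12 and Olfr432 with 10 had no pair with a receptor gene. The plot of contacts by distance shows that Olfr583 reached receptor genes on both sides, up to 1009 kb away on the side of higher coordinates and up to 437 kb on the other. Olfr412 reached a group of fragments at a median of 1086 kb on a single side.

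**Figure D1:**
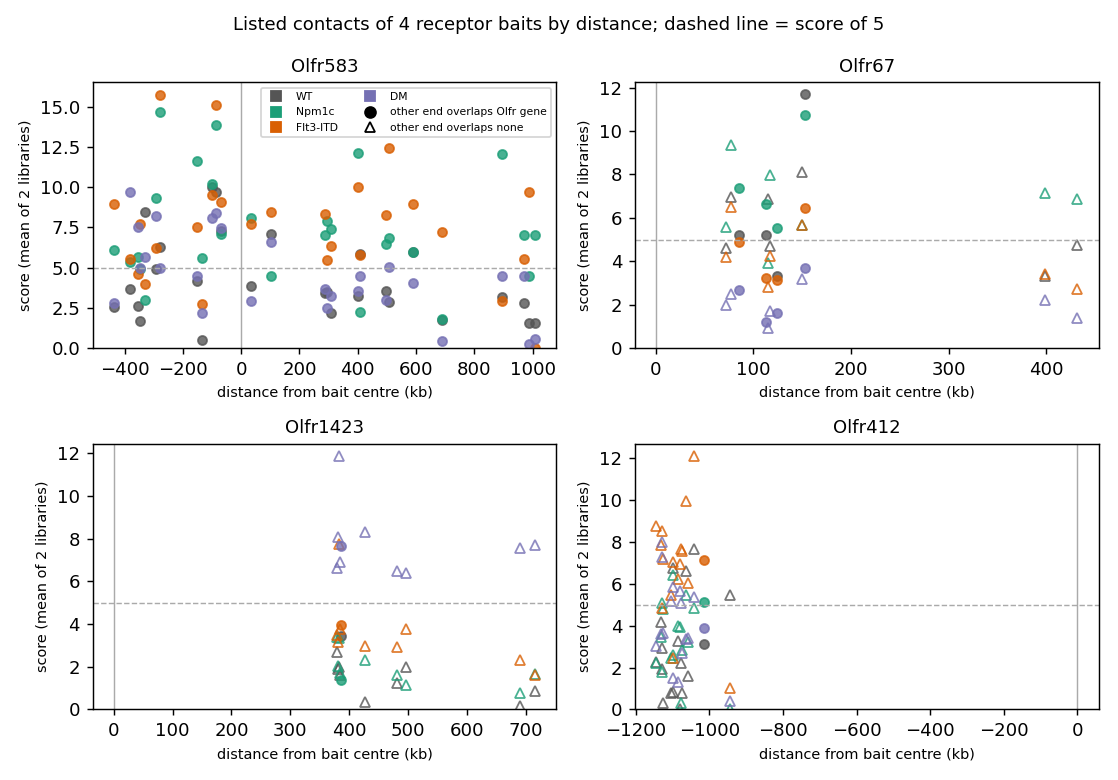
Listed contacts of Olfr583, Olfr67, Olfr1423 and Olfr412: the x axis is the distance of the other end from the bait centre in kb and the y axis is the score, as the mean of the 2 libraries of each HSPC group (colours). Filled circles are other ends that overlap an Olfr gene and open triangles are the rest. All 27 Olfr583 points per group are circles. All 10 Olfr1423 contacts lie above the dashed line at 5 in DM, against 1 in Flt3-ITD and 0 in WT and Npm1c. DM brought these 10 pairs into the list, so their level in DM carries no test.

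Among the genes of other families, Aim2, a sensor of cytosolic DNA, was reached by 31 pairs from 9 receptor baits on chromosome 1, at 587 to 990 kb. At 5 or more in both libraries there were 6 of these pairs in WT, 8 of them in Npm1c, 11 in Flt3-ITD cells and 17 in DM. The median score of the 31 pairs was 4.64 and 2.60 in the WT libraries and 5.90 and 5.38 in the DM libraries, while the Npm1c libraries (4.37 and 6.06) and the Flt3-ITD libraries (4.02 and 6.14) each had a library below 4.64 and another above 5.90. Usp29, an imprinted ubiquitin protease gene, was reached by 17 pairs from 4 baits on chromosome 7, of which 2, 11, 11 and 6 passed in WT, Npm1c, Flt3-ITD and DM. The same cutoff listed the Aim2 and Usp29 pairs, so their counts and medians carry no test. Over all baits 34.9% of listed pairs passed in WT, 41.8% in Npm1c, 51.2% in Flt3-ITD cells and 48.8% in DM. Chd8, a chromatin remodeller gene on chromosome 14, and Tep1, a telomerase-associated protein gene there, were each reached by 11 pairs.

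The highest-scoring receptor contacts were short pairs of neighbouring receptors and a contact of Olfr750. Olfr1509 with Olfr1511, 59.4 kb apart on chromosome 14, scored 18.1 and 16.3 in WT, 32.5 and 29.3 in Npm1c, 24.6 and 22.1 in Flt3-ITD, 23.1 and 19.9 in DM, and 13.2 and 14.1 in neutrophils. The Npm1c libraries were the highest and the neutrophil libraries the lowest, and no WT library reached a mutant library. Olfr854 with Olfr855, 12.5 kb apart on chromosome 9, scored 0 and 14.1 in WT and 56.5 and 17.8 in Npm1c, so its replicates disagreed. Olfr750 with a fragment 271 kb away and 1.99 kb from Parp2, a DNA repair gene, scored 22.5 and 8.97 in WT HSPCs and 21.0 and 19.6 in neutrophils. The second Olfr750 contact, 268 kb away, scored 14.1 and 18.4 in WT HSPCs and 23.3 and 9.25 in neutrophils. Olfr1270 with Olfr32, 8.65 kb apart on chromosome 2, scored 16.7 and 13.5 in WT, 30.1 and 12.8 in Npm1c, 26.0 and 14.3 in the Flt3-ITD libraries and 11.9 and 8.18 in DM. The replicates of both single mutants disagreed. These scores were among those the listing selected and carry no test.

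Each of the 5 longest contacts between receptor genes was at 5 or more in both libraries of 1 group only. So were 72.1% of all receptor pairs and 56.3% of pairs over all baits. The longest, Olfr1076 with Olfr1178 at 1882 kb on chromosome 2, scored 6.26 and 5.19 in Npm1c, 2.65 and 0 in Flt3-ITD, and 0 in the WT and DM libraries. Olfr1270 with Olfr1176, 1808 kb apart, scored 11.7 and 15.2 in WT, 0.955 and 0 in Npm1c, 17.9 and 0 in Flt3-ITD cells and 3.52 and 10.1 in DM. The pairs of Olfr1270 with Olfr1178, Olfr1184 with Olfr32 and Olfr685 with Olfr616 spanned 1757, 1652 and 1616 kb. The median distance was 290 kb for pairs that joined receptor genes and 320 kb for the rest of the same-chromosome pairs.

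A lone receptor bait pair, 0.08% of 1183, joined different chromosomes. Olfr137 on chromosome 17 with chr2:87483627-87487556, 1.53 kb from Pramel7, scored 16.0 and 6.65 in the Flt3-ITD libraries and 0 in the other 6 HSPC libraries. Over all baits 280 of 88624 HSPC pairs (0.32%) joined different chromosomes. For the other chemoreceptor and the zinc finger baits described below, 0 of 145 and 0 of 774 pairs did. Pairs between chromosomes were thus rare in the whole list, and whether the receptor share differed was not tested. No listed pair joined receptor genes of different chromosomes, as happens in olfactory neurons. Such a contact enters the list only at a score of 5 or more in both libraries of a group, so weaker contacts were not seen here.

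By the share of listed pairs at 5 or more, receptor contacts were higher in both single mutants than in WT. They were at the WT level in DM, where contacts over all baits were higher. The same scores and cutoff listed the pairs, so each share in part counts the pairs its own group brought in. These shares carry no test. The share of the 1183 receptor pairs at 5 or more was 46.0% and 45.6% in the WT libraries, 53.8% and 56.1% in Npm1c, 53.2% and 51.6% in Flt3-ITD cells and 48.5% and 43.0% in DM. All 4 libraries of the single mutants lay above both WT libraries, and the DM libraries lay on either side of WT. As group means the shares were 45.8% ± 0.239 (SD, n = 2) in WT, 54.9% ± 1.67 in Npm1c, 52.4% ± 1.14 in Flt3-ITD cells and 45.8% ± 3.89 in DM. Over all 88624 pairs they were 50.2% ± 4.56, 56.7% ± 6.84, 64.1% ± 0.0335 and 61.3% ± 0.724. The receptor share minus the share over all baits was -7.43 and -1.32 percentage points in WT, 1.95 and -5.36 in Npm1c, -10.9 and -12.5 in Flt3-ITD cells, and -12.2 and -18.8 in DM. The Flt3-ITD and DM libraries thus had the widest gaps, and the WT and Npm1c libraries overlapped.

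**Figure D2:**
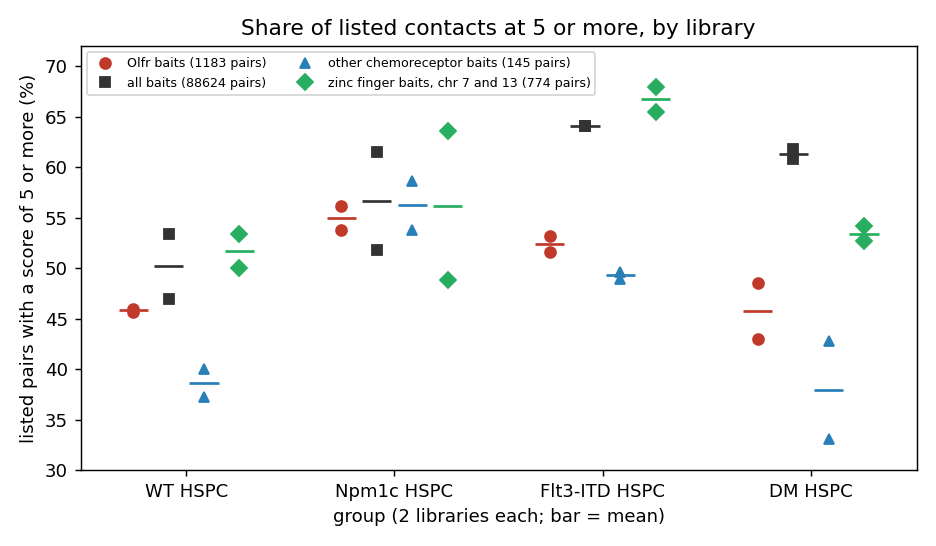
Share of listed pairs with a score of 5 or more (y axis, %, from 30) in each of the 8 HSPC libraries (points, 2 per group; bars are group means) for receptor baits, all baits, other chemoreceptor baits and zinc finger baits. Receptor baits have means of 52.4% in Flt3-ITD cells and 45.8% in DM, below the 64.1% and 61.3% of all baits.

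Other families gave a setting for these shares. The 61 baits of other chemoreceptor genes (vomeronasal, trace amine, bitter taste and formyl peptide receptors) had 145 pairs, with shares of 38.6% ± 1.95 in WT, 56.2% ± 3.41 in Npm1c, 49.3% ± 0.488 in Flt3-ITD cells and 37.9% ± 6.83 in DM. The 70 baits of zinc finger genes on chromosomes 7 and 13, another clustered family, had 51.7% ± 2.38, 56.2% ± 10.4, 66.7% ± 1.74 and 53.4% ± 1.00. In DM both families, like the receptors, had a lower mean than all baits. In Flt3-ITD the chemoreceptors did and the zinc finger genes did not.

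Counted as pairs at 5 or more in both libraries, receptor baits had 369 in WT, 501 in Npm1c, 450 in Flt3-ITD cells and 376 in DM. Over all baits the counts were 30921, 37062, 45413 and 43228. Receptor pairs made up 1.19% of passing pairs in WT, 1.35% in Npm1c, 0.991% in Flt3-ITD cells and 0.870% in DM. Of the receptor pairs, 72.1% passed in 1 group only and 4.4% in all 4, against 56.3% and 10.1% for other gene baits.

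Distance and partner separated the receptor pairs in DM. Of the 316 pairs over 500 kb, 30.7% and 30.1% were at 5 or more in the WT libraries, 43.7% and 44.6% in Npm1c, 46.2% and 47.8% in Flt3-ITD cells and 52.2% and 44.6% in DM. Every mutant library lay above both WT libraries for these long pairs. Of the 866 pairs up to 500 kb, the values were 51.6% and 51.4% in WT, 57.5% and 60.4% in Npm1c, 55.7% and 52.9% in Flt3-ITD cells and 47.2% and 42.5% in DM. Here both DM libraries were the lowest. Where the other end overlapped a receptor gene, the share was 49.9% ± 1.76 in WT and 43.3% ± 5.02 in DM. Where it overlapped another gene only, it was 44.3% ± 2.62 in WT and 55.6% ± 3.81 in DM. The same splits are not given here over all baits, so whether they are particular to receptor pairs was not tested.

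The receptor clusters went different ways. The cluster of 46 baits on chromosome 7 from 102.5 to 105.4 Mb (Olfr543 to Olfr692), which encloses the beta-globin genes, had 101 pairs at 5 or more in WT, 124 in Npm1c, 75 in Flt3-ITD cells and 32 in DM. By library, 132 and 141 of its 224 pairs were at 5 or more in WT, 153 and 153 in Npm1c, 118 and 98 in Flt3-ITD cells and 62 and 56 in DM, so both DM libraries were below all others. The 15 other baits inside the same span had 28, 39, 32 and 28 passing pairs.

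The chromosome 19 cluster of 20 baits from 11.8 to 13.9 Mb (Olfr1417 to Olfr1505) ran the other way. It had 11 passing pairs in WT, 15 in Npm1c, 21 in Flt3-ITD cells and 52 in DM, and 44 of those 52 passed in DM alone. Among pairs passing in DM, 16387 of 43228 over all baits and 207 of 376 over receptor baits passed in DM alone. Such pairs are in the list only through DM. By library, 24 and 17 of its 85 pairs were at 5 or more in WT, 24 and 19 in Npm1c, 33 and 30 in Flt3-ITD cells and 59 and 61 in DM. The 16 other baits inside this span also had more passing pairs in DM, with 34, 38, 63 and 100.

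The other large clusters peaked in different groups. The chromosome 11 cluster (Olfr20 to Olfr412, 11 baits) had 8 passing pairs in WT, 13 in Npm1c, 32 in Flt3-ITD cells and 8 in DM. The second chromosome 7 cluster (Olfr693 to Olfr519, 26 baits) had 13, 45, 30 and 22. The chromosome 2 cluster of 222 genes (Olfr987 to Olfr1274, 58 baits) had 29, 49, 38 and 60. The chromosome 17 cluster (Olfr90 to Olfr136, 16 baits) had 19, 25, 43 and 36, and the chromosome 14 cluster (Olfr722 to Olfr1507, 19 baits) had 59, 74, 61 and 40. The chromosome 9 cluster (Olfr160 to Olfr986, 23 baits) had 31, 34, 32 and 18. The chromosome 10 cluster (Olfr9 to Olfr827, 20 baits) had 14, 22, 21 and 6, and the smaller chromosome 2 cluster (Olfr338 to Olfr368, 14 baits) had 12, 15, 16 and 8. On chromosome 1, with 11 baits, 8, 12, 11 and 22 pairs passed. These counts rest on pairs selected for a score of 5 or more in some group and carry no test.

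**Figure D3:**
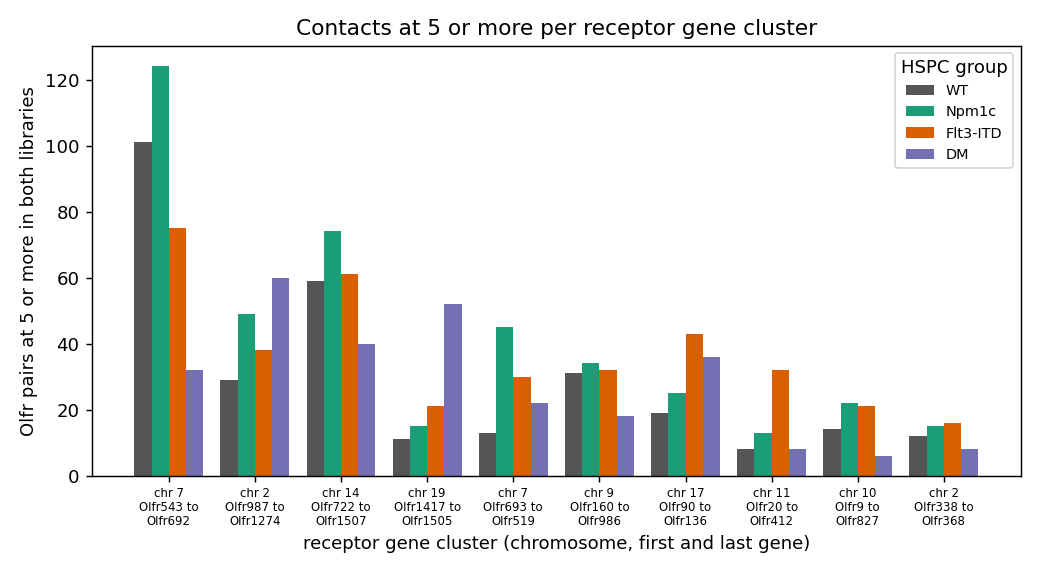
Number of receptor pairs at 5 or more in both libraries (y axis) for the 10 receptor clusters with 10 or more HSPC baits (x axis, by chromosome with first and last gene), with a bar for each HSPC group. DM is the lowest bar at Olfr543 to Olfr692 (32) and the highest at Olfr1417 to Olfr1505 (52).

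Bait differences were also taken over pairs listed because of an HSPC group not being compared, so that the compared groups did not choose them. The bait value is the mean of log2(score + 1) over such pairs, and differences are in these log2 units. In a mutant against WT, the groups that listed the pairs were other mutants, and DM shares a mutation with each single mutant. This choice can favour a rise over WT, and its part in the differences was not tested. For Olfr543 to Olfr692 the median difference over 39 baits was -0.37 in DM against Npm1c, where the median over all baits was 0.00. It was -0.25 over 36 baits against WT (all baits 0.11) and -0.25 over 43 baits against Flt3-ITD (all baits -0.10). The median bait values in the first of these were 2.58 and 2.54 in Npm1c and 2.01 and 2.06 in DM, and the libraries did not overlap. For Olfr1417 to Olfr1505 the median difference was 0.62 over 14 baits in DM against Npm1c and 0.61 over 13 baits against WT. In DM against Npm1c, 11 of the 14 baits were higher, and the library medians (1.92 and 1.53 against 2.44 and 2.17) did not overlap. In DM against WT, 8 of the 13 were higher, and the library medians overlapped, with 2.16 and 1.69 in WT against 2.27 and 2.08 in DM. The difference was -0.08 over 13 baits against Flt3-ITD. The second chromosome 7 cluster was at 0.56 over 19 baits in Npm1c against WT (all baits 0.12) and at -0.45 over 18 baits in DM against Npm1c. For the chromosome 11 cluster the median difference of Flt3-ITD against WT was 1.49 over 7 baits with 17 pairs (all baits 0.22).

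Erythroid baits were measured beside the chromosome 7 cluster. Of the 14 genes in the erythroid list, 12 lay on an HSPC bait and 4 could be tested in DM against Npm1c, with a median difference of -0.52 and 0 calls. The part of a change in erythroid cells in the receptor values was not tested.

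**Figure D4:**
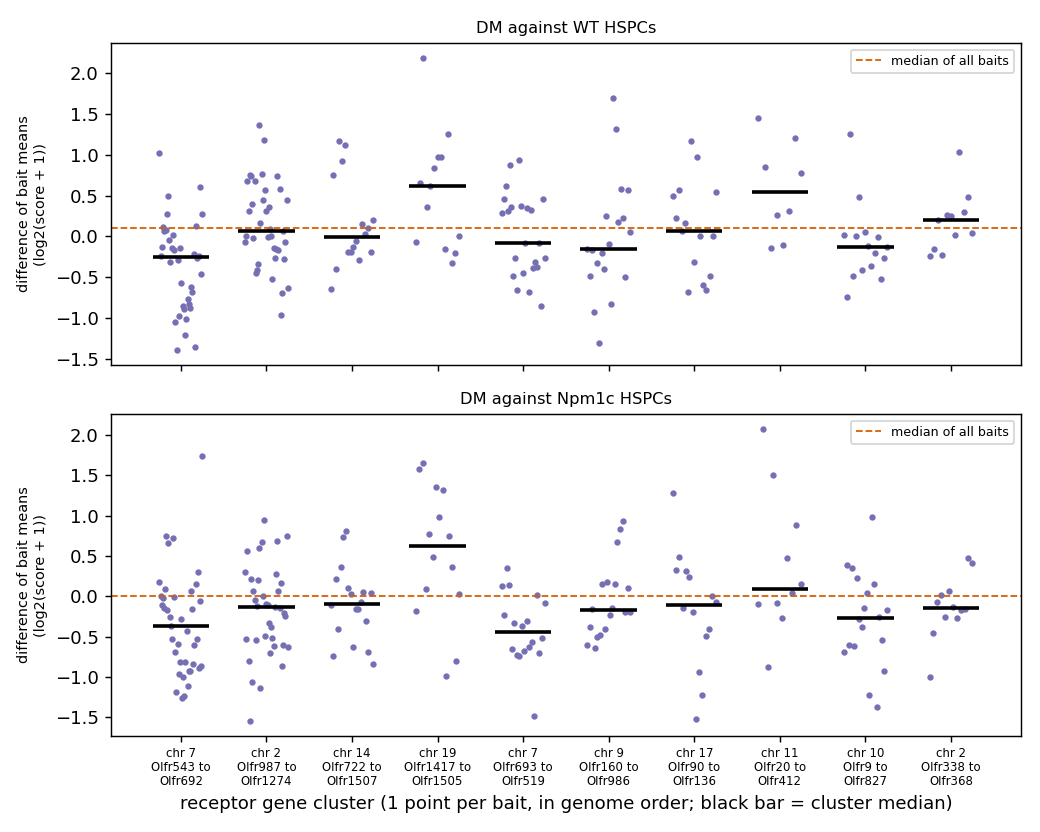
Difference of bait means (y axis, log2(score + 1) units) for each receptor bait (points) in DM against WT (upper) and DM against Npm1c (lower), by cluster, over pairs listed because of an HSPC group that is not compared. Black bars are cluster medians and the dashed line is the median of all baits; the chromosome 19 cluster lies at 0.61 (library medians overlap) and 0.62 and Olfr543 to Olfr692 at -0.25 and -0.37.

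Tests were made on baits with at least 10 such pairs, with limma fitted over all baits and Benjamini-Hochberg adjustment over all of them. Between 12 and 16 of the 327 receptor baits could be tested in each HSPC comparison, so the tests cover few members. In Flt3-ITD against WT, 2 of 16 receptor baits were higher and 0 lower, where 7.7% of all 1858 baits were higher and 0% lower. In DM against WT, 2 of 16 were higher and 0 lower, against 4.89% and 0.815% of 1841 baits. In DM against Flt3-ITD, 0 of 14 were higher and 2 lower, against 0.132% and 5.82% of 1513 baits. The direction of the background depended on the scaling. With quantile normalization 13 of all baits were higher and 4 lower in Flt3-ITD against WT (143 and 0 as deposited), 40 and 33 in DM against WT (90 and 15), and 2 and 8 in DM against Flt3-ITD (2 and 88). Counts of 2 among so few baits show nothing particular to receptors. In Npm1c against WT, limma called 0 of 15 (background 0.153% higher and 0% lower of 1960 baits), with 4 at an unadjusted p under 0.05, all higher, against 103 of all 1960 baits. Without WT replicate 2, 0 receptor baits had an unadjusted p under 0.05, and without Npm1c replicate 1 there were 2. In DM against Npm1c it called 0 of 12 (background 0% in either direction of 1729 baits), with 5 at an unadjusted p under 0.05, 1 higher and 4 lower, against 271 of all 1729 baits. The comparisons with WT share the WT libraries, and those with DM share the DM libraries.

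Over the tested receptor baits the median difference was 0.21 in Npm1c against WT (all baits 0.15), 0.43 in Flt3-ITD against WT (0.28), -0.07 in DM against WT (0.09), -0.16 in DM against Npm1c (-0.03) and -0.31 in DM against Flt3-ITD (-0.16). With quantile normalization, which also took the median over all baits to 0.01 in both single mutants against WT and to -0.01 in DM against Flt3-ITD, the receptor medians were 0.04 in Npm1c against WT, 0.15 in Flt3-ITD against WT and -0.14 in DM against Flt3-ITD. Leaving out a library moved the Npm1c median to 0.36 (without Npm1c replicate 2) or 0.32 (without WT replicate 1), and without DM replicate 2 the DM medians against WT and Npm1c became 0.06 and 0.06. Over baits with at least 1 such pair, the receptor median was 0.16 in Npm1c against WT over 241 baits (all baits 0.12). In Flt3-ITD against WT it was 0.215 over 254 baits, below the 0.222 of all baits. It was 0.00 over 246 baits in DM against WT (0.11) and -0.15 over 243 in DM against Npm1c (0.00). In DM against Flt3-ITD it was -0.19 over 251 (-0.10).

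Olfr1076 and Olfr1423 rose in Flt3-ITD against WT. At Olfr1423 (chr19:12034707-12037496), over 10 pairs, the bait value was 1.37 and 1.13 in WT and 2.0 and 2.20 in Flt3-ITD. The groups did not overlap, and the difference was 0.85 (SE 0.20, limma adjusted p = 0.0081). Its contacts ran from fragments beside and on Olfr1441 to Mpeg1, a macrophage perforin gene, and to fragments near Dtx4, Keg1 and Cntf, at 379 to 716 kb. At 5 or more in both libraries, 0 of the 10 passed in WT, 0 in Npm1c, 1 in Flt3-ITD cells and 10 in DM. DM brought these pairs into the list, so its level of 2.95 and 3.25 carries no test. The Mpeg1 contact scored 0.708 and 0 in WT and 7.64 and 9.01 in DM. Without Flt3-ITD replicate 1 or 2 the adjusted p of Olfr1423 was 0.0715 or 0.374, and with quantile normalization the difference was 0.40 (limma adjusted p = 0.421).

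Olfr1076 (chr2:86507583-86509883) contacted receptor genes of its own cluster, from Olfr1008 to Olfr1178. Over 13 pairs its value was 1.74 and 1.44 in WT and 2.59 and 1.99 in Flt3-ITD, a difference of 0.70 (SE 0.21, limma adjusted p = 0.0359). In DM against WT, over 10 pairs, it was 1.35 and 1.53 in WT and 2.73 and 2.51 in DM, a difference of 1.18 (SE 0.19, limma adjusted p = 0.00974). WT was lower in every library in both comparisons, which use partly the same pairs and the same WT libraries. Its contact with Olfr1012 at 754 kb scored 8.04 and 8.54 in WT, 5.24 and 5.89 in Npm1c, 13.7 and 20.0 in Flt3-ITD cells and 14.3 and 23.7 in DM. With a Flt3-ITD library left out, the adjusted p for Flt3-ITD was 0.509 (replicate 1) or 0.112 (replicate 2), and without WT replicate 2 it was 0.0939. With quantile normalization the Flt3-ITD difference was 0.43 (limma adjusted p = 0.435). For DM it was 0.442 without DM replicate 1, 0.549 without DM replicate 2 and 0.0512 without WT replicate 2.

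Olfr412 (chr11:74360254-74367476) rose in DM against WT. Over 14 pairs its value was 1.48 and 1.32 in WT and 2.44 and 1.92 in DM, a difference of 0.78 (SE 0.21, limma adjusted p = 0.0465). It lies at the end of the chromosome 11 cluster beside Rap1gap2, and the other end overlapped a receptor gene in 1 of its 17 pairs. Trpv1 and Trpv3, ion channel genes of heat sensing, and Aspa, an enzyme gene, were among its partners. At 5 or more in both libraries, 14 of the 17 pairs passed in Flt3-ITD against 2 in WT and 1 each in Npm1c and DM, so Flt3-ITD brought most of them into the list. The adjusted p was 0.453 without DM replicate 1, 0.549 without DM replicate 2 and 0.175 without WT replicate 2, and with quantile normalization 0.0867.

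Olfr67 and Olfr669, both of the chromosome 7 cluster, fell in DM against Flt3-ITD. Olfr67 (chr7:103791731-103797672) lies 14.9 kb from the beta-globin gene Hbb-bt and contacted the stretch from beside Hbb-y to Olfr633, a fragment 2.15 kb from Olfr649, and Trim6. Over 11 pairs its value was 2.50 and 2.19 in Flt3-ITD cells and 1.52 and 1.58 in DM, a difference of -0.79 (SE 0.16, limma adjusted p = 0.0122). Its values over the same pairs were 2.39 and 2.93 in WT and 3.01 and 2.89 in Npm1c, and these groups brought pairs into the list. Without DM replicate 1, DM replicate 2 or Flt3-ITD replicate 1 the adjusted p was 0.0831, 0.1 or 0.0677, and with quantile normalization the difference was -0.52 (limma adjusted p = 0.142). Olfr669 (chr7:104932540-104942924) contacted other receptor genes in 10 of 12 pairs. Over 10 pairs it was at 2.49 and 2.91 in Flt3-ITD cells and 2.06 and 2.02 in DM, a difference of -0.66 (SE 0.17, limma adjusted p = 0.0337). Without DM replicate 1, DM replicate 2 or Flt3-ITD replicate 2 the adjusted p was 0.104, 0.144 or 0.27, and with quantile normalization 0.191.

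**Figure D5:**
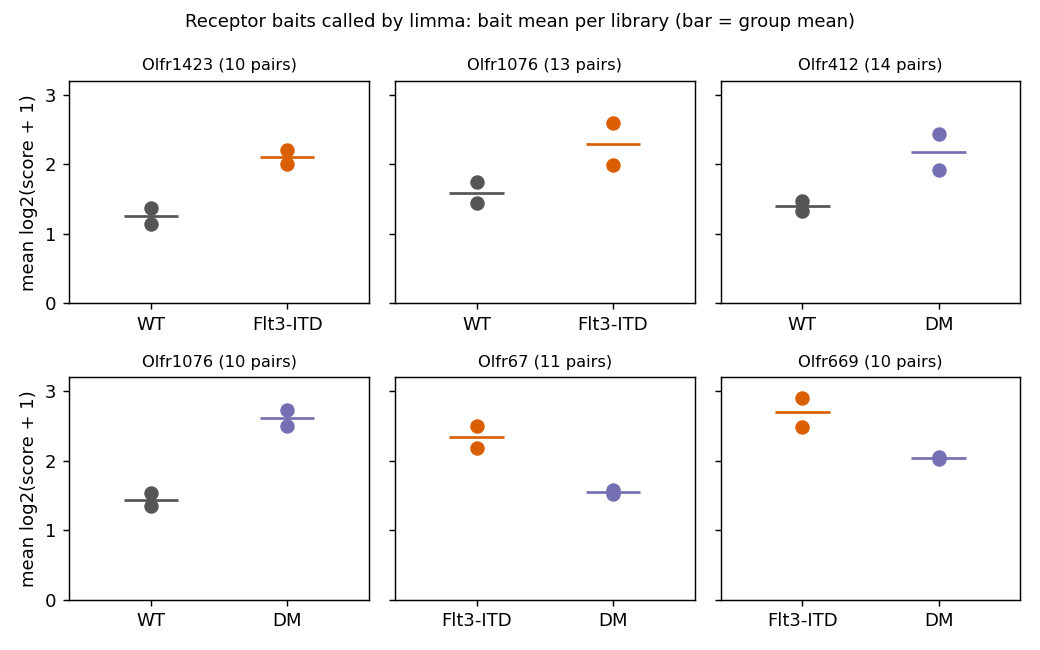
Mean of log2(score + 1) over the pairs tested (y axis) in each library (points; bars are group means of 2 libraries) for the receptor baits called by limma in each comparison. The 2 groups of each panel do not overlap, from 1.37 and 1.13 against 2.0 and 2.20 at Olfr1423 to 2.49 and 2.91 against 2.06 and 2.02 at Olfr669. The same values picked these baits, so the separation is not separate support for the calls.

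Other large differences were not called. Olfr243, of the chromosome 7 cluster, was at 2.90 and 3.00 in Npm1c and 2.07 and 1.89 in DM, a difference of -0.97 (SE 0.20, limma adjusted p = 0.0793). Olfr382, of the chromosome 11 cluster, was at 2.89 and 2.63 in Npm1c and 1.89 and 1.87 in DM, a difference of -0.88 (SE 0.20, limma adjusted p = 0.0793). In both the libraries did not overlap. In Npm1c against WT the largest differences were 0.67 at Olfr382 (adjusted p = 0.694), 0.62 at Olfr701 (0.845) and 0.61 at Olfr412 (0.849) by limma. Olfr432 in Flt3-ITD against WT (0.65, adjusted p = 0.0566), Olfr95 in DM against WT (0.57, 0.106) and Olfr632 in DM against Flt3-ITD (-0.55, 0.0579) were the third largest of their comparisons. Olfr583 differed by -0.53 in DM against Npm1c (limma adjusted p = 0.232).

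The baits whose number of passing pairs differed most from WT were these. Olfr583 had 4 in WT, 15 in Npm1c, 19 in Flt3-ITD cells and 7 in DM, all with other receptor genes. Olfr382 had 1, 9, 13 and 4, and Olfr1344, beside Smim17 on chromosome 7, had 3, 11, 8 and 6. Olfr95 had 7, 9, 15 and 23. Olfr1441 had 0, 2, 5 and 12, and Olfr432, 14.3 kb from the interferon-inducible gene Ifi205, had 0, 1, 3 and 10. The first 3 were high in single mutants and the last 3 in DM. They were picked for this difference, and the cutoff counted here also listed the pairs, so the counts carry no test. Over all baits 30921 pairs passed in WT, 37062 in Npm1c, 45413 in Flt3-ITD cells and 43228 in DM.

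In neutrophils 98 of the 158 receptor baits had 1 pair. The other end overlapped a receptor gene in 166 of the 287 pairs (57.8%), and the median distance was 154 kb. Olfr750 with 19 pairs and Olfr1359 with 18 held 12.9% of the pairs, followed by Olfr1441, Olfr71 and Olfr669 with 6 each. Olfr1359 with the histone gene H4c4, 1877 kb away across the histone region, scored 13.1 and 14.7. Olfr804 with Olfr805, 18.0 kb apart on chromosome 10, scored 13.8 and 14.7 in neutrophils and 11.3 and 10.1 in WT HSPCs. Olfr71 with Fam166b, 279 kb away on chromosome 4, scored 16.6 and 10.9 in neutrophils and 8.41 and 7.99 in WT HSPCs.

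Few receptor contacts were in both lists. Of the receptor pairs, 106 were in both, which is 9.0% of the HSPC and 36.9% of the neutrophil receptor pairs. Over all baits 15.9% and 55.0% of pairs were in both. Of the receptor baits, 35.8% of those in the HSPC list were in the neutrophil list, against 48.5% of all baits. The neutrophil list holds only pairs at 5 or more in both libraries, so lower scores were not seen there. Olfr750 was the single receptor bait with at least 10 pairs passing in WT of both cell types. Its value was 3.38 and 3.16 in WT HSPCs and 3.49 and 3.19 in neutrophils over 13 pairs, a difference of 0.07 (SE 0.16, limma adjusted p = 0.79, with 0 of 1 called and 0 at an unadjusted p under 0.05). Of the 112 baits tested, 12.5% were higher and 1.79% lower in neutrophils.

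Genes that act on the receptors were scarcely measured. Of 28 genes for olfactory signalling and receptor choice, 11 lay on an HSPC bait and 0 reached 10 pairs in any comparison. Of 21 heterochromatin genes 16 lay on an HSPC bait, and 1 was tested in each comparison, with 0 calls by limma.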

How the data were processed

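Promoter-capture Hi-C was deposited for 10 libraries. Per the labels' protocols, cells were fixed in 1% formaldehyde for 10 minutes, HindIII was used, and 39684 probes covered 22047 promoters. Per the submitters' processing notes the build was mm10, and the aligner and interaction caller are not given in the sources used here. The deposited score per fragment pair is never negative, and its reference level is not given in the files or labels. Per the file headers, another quantity is the distance from bait to other end in bp. With no counts in the files, depth is unknown and the precision comes from the spread between replicates alone. Each HSPC pair is at 5 or more in both libraries of at least 1 group, which favours differences between groups. Bait means of log2(score + 1) therefore used pairs listed because of an HSPC group that was not being compared. For mutants against WT those groups are mutants too, so the choice can still favour a rise over WT. For neutrophils, pairs at 5 or more in WT of both cell types were used, so there the compared scores did choose the pairs. Baits with 10 or more pairs were fitted with limma 3.58.1 in R 4.3.3 (two-sided, Benjamini-Hochberg over all baits, 0.05), after 203 pairs off autosomes and X were left out. Each comparison used its own 4 libraries, and the scripts were tested on simulated data. Alternatives were quantile normalization, a pseudocount of 0.1, 5, 3 or 1 pairs per bait, all listed pairs, the median over pairs, pairs on the same chromosome, a replicate block and each replicate left out. Named baits were those called, the 3 largest differences per comparison, the 5 with most pairs, the 5 highest and longest pairs, and the 3 with the largest change in passing pairs for each mutant. Members, lists and comparisons were chosen with earlier results of these data known. Nothing in the labels ties replicate numbers across groups, and p-values measure the spread between these 2 libraries per group. A result on an erythroid bait is not reported here.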

Additional observations from a re-analysis of the deposited data

Results flagged for a closer look

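Olfr583 differed in direction between backgrounds. On adding Flt3-ITD it was higher by 0.54 in the WT background (18 pairs) and lower in the Npm1c background (a difference of -0.53, 20 pairs), so the differences are -1.07 apart. On adding Npm1c it was higher by 0.50 in the WT background and lower in the Flt3-ITD background (-0.46), which are -0.96 apart. Olfr1509 on adding Npm1c was higher by 0.48 in the WT background and lower in the Flt3-ITD background (-0.54), which are -1.02 apart. In each case both libraries of a group lay beyond both libraries of the other, in opposite directions, among 8 receptor baits tested in both backgrounds. These differences of differences were not tested, and the pairs behind the values differ between backgrounds. Both Olfr583 entries are the same contrast of the same HSPC groups over differing sets of pairs, so they are not separate observations. The share of all baits with such a pattern is not given here.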

How the results depend on the processing

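With a replicate block the count of receptor baits called higher in Flt3-ITD against WT fell to 0 and that called lower in DM against Flt3-ITD to 0. No other count moved under the block. Replicate numbers showed no pairing, with correlations of same-numbered deviations between -0.0124 and 0.0613. The count in Flt3-ITD against WT (2 higher) was 0 with quantile normalization, 1 with a pseudocount of 0.1, 1 with at least 5 pairs, 0 with 3, 0 with 1, 8 with all listed pairs and 0 with the median over pairs. In DM against WT (2 higher, 0 lower) it was 1 with quantile normalization, 0 with a pseudocount of 0.1, 0 with 5, 3 or 1 pairs, and 6 higher and 4 lower with all listed pairs. In DM against Npm1c (0 and 0) it was 1 lower with quantile normalization, and 3 higher and 7 lower with all listed pairs. In DM against Flt3-ITD (2 lower) it was 0 with quantile normalization, 1 with a pseudocount of 0.1, 0 with 5, 3 or 1 pairs, 3 higher and 8 lower with all listed pairs and 0 with the median over pairs. In Npm1c against WT the median over pairs gave 1 higher. The cause was not tested, beyond that fewer pairs per bait means more baits tested and that all listed pairs keep the selection. Leaving out 1 library gave 0 to 8 higher in Flt3-ITD against WT, 0 to 3 higher in DM against WT, 0 to 1 higher and 0 to 2 lower in DM against Npm1c and 0 to 1 lower in DM against Flt3-ITD. The 8 came without WT replicate 1. Where an arm kept 1 library, it was assumed to vary like the other arm. Of the 6 called differences, none changed sign under any of the 13 alternatives each. Calls held under 6 of the 13 for Olfr1076 in DM against WT (adjusted p from 2.22e-05 to 0.549), 5 for Olfr1423 (0.000102 to 0.457), 4 for Olfr412 (0.00875 to 0.549), 4 for Olfr67 (0.00343 to 0.516), 3 for Olfr669 (0.00659 to 0.539) and 3 for Olfr1076 in Flt3-ITD against WT (0.000735 to 0.509). With a threshold of 3 the share of receptor pairs was 66.6% in WT and 69.2% in DM, and with 10 it was 5.41% and 6.26%.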
